A study of Caenorhabditis elegans with 2 samples.

Results

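The EGL-13 sites of the X chromosome were the regions of the deposited list of reproducible (optimal) ChIP-seq peaks that lie on chromosome X, 491 of 2294 regions in all. The other 1803 sites lay on the 5 autosomes and served as the comparison. Sonicated chromatin of whole Caenorhabditis elegans hermaphrodites at the L1 larval stage was immunoprecipitated with an antibody against GFP. The animals were of strain GOU883, in which an insertion at egl-13 gives the protein a C-terminal GFP-FLAG tag, and were collected 6 h after release from starvation at L1. Both libraries, biological replicates 3 and 4, carried the tag and formed 1 group, so no condition was contrasted and each comparison below is between chromosomes within the same libraries. Each library came from a population of whole animals, so that few cells with strong occupancy and many cells with weak occupancy cannot be told apart. Read depth is unknown, and the support for a site is given by its signal value in each replicate. The signal value is the authors' own score of a region from their peak caller, larger for stronger regions, on a scale not given in the sources used here. Positions are 1-based on ce11, which is WBcel235.

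EGL-13 belongs to the SoxD group of HMG-box transcription factors and is known for its role in the fate of gas-sensing neurons and of uterine cells. The X chromosome of C. elegans is present in a pair in hermaphrodites and singly in males, and a dosage compensation complex that resembles condensin lowers transcription from both X chromosomes of the hermaphrodite. SDC-2 brings this complex to recruitment sites on X that share a short sequence motif, from which it spreads along the chromosome, and X signal elements such as FOX-1, SEX-1 and CEH-39 set this state by repressing xol-1, the master switch of sex determination. The X chromosome is also known for a large number of tRNA genes and few housekeeping genes.

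Of the 10 strongest X sites, 6 carried a sequence that is known as the core of the dosage compensation recruitment motif. The 8 letters GCGCAGGG, on either strand and at most 50 bp from the summit, were present at 14 of 491 X sites (2.85%, 95% exact interval 1.57 to 4.74) and at 0 of 1803 autosomal sites, which allows a share of up to 0.204%. Fisher's exact test, two-sided, gave an adjusted p of 3.65e-09 over the motifs tested, and the lower bound of the odds ratio was 12.5. The motifs were chosen with earlier results of these data known, and the adjustment does not cover that choice. The sequences below are the windows of the 6 core sites among the 10 strongest X sites, of the weakest core site, and of 2 strong sites whose window matched the core with 1 substitution, shown because they let the shared letters be read directly. Each is 48 bases, 5′ to 3′ on the strand that carries the core, from the RefSeq WBcel235 genome, with the core or its near match in capitals. The windows are chrX:4209246-4209293 (F20B6.9, minus strand), chrX:2997103-2997150 (Y41G9A.17, minus strand), chrX:14525880-14525927 (nspc-17, minus strand), chrX:11094206-11094253 (W02H3.3, minus strand), chrX:6296556-6296603 (mom-1, plus strand), chrX:8036415-8036462 (xol-1, plus strand), chrX:1837872-1837919 (WBGene00020828, plus strand), chrX:9465863-9465910 (ZK899.6, plus strand) and chrX:14819040-14819087 (epn-1, plus strand).
F20B6.9: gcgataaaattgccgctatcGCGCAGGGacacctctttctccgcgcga
Y41G9A.17: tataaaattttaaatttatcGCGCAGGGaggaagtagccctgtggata
nspc-17: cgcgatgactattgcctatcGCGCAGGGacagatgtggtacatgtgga
W02H3.3: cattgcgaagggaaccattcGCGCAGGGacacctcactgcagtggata
mom-1: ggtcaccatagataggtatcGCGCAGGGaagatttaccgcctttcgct
xol-1: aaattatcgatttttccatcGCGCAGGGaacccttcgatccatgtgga
WBGene00020828: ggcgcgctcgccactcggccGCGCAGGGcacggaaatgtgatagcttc
ZK899.6: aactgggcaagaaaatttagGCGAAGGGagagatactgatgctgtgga
epn-1: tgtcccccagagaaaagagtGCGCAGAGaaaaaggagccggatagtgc

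The shared letters ran past the core. The base before it was C in 12 of 14 windows, the base before that was T in 11 of 14, and the base after it was A in 10 of 14. With positions counted from 1 at the 5′ end of the core, the ZK899.6 window carried C4A and the epn-1 window carried G7A. Exactly 1 mismatch was found at 7.13% of X sites and 6.60% of autosomal sites, with an odds ratio of 1.09 (0.713 to 1.62) and p = 0.684 by Fisher's exact test, two-sided and unadjusted, in a comparison added after the values were seen. The core was rare beside the sites: windows centred 300 bp to each side held it in 0.102% of cases on X and 0.0277% on the autosomes. A match with exactly 1 mismatch was found in 1.02% of these windows on X and 1.39% on the autosomes. Such near matches were thus more frequent at the summits than beside them on both.

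Core sites were concentrated among the strongest X sites. The core was present at 6 of the 10 strongest X sites, 8 of the 25 strongest, 3 of the next 25, 0 of those ranked 51 to 100, 2 of the next 100 and 1 of the last 291. Their median signal value was 360, against 95.3 for the 477 X sites without the core. Of the 14, 13 had a summit within 100 bp among the 2294 strongest regions of each replicate. The exception was the weakest, at WBGene00020828, with a signal value of 70.5 in the pooled list, 45.1 in replicate 3 and 21.2 in replicate 4. Such support was not particular to core sites. It was found for 93.8% of the X sites in the stronger 50% of the list, which was itself made from both replicates. By position, 7 of the 14 lay between genes, 4 in promoter windows, 2 in introns and 1 in an exon.

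**Figure D1:**
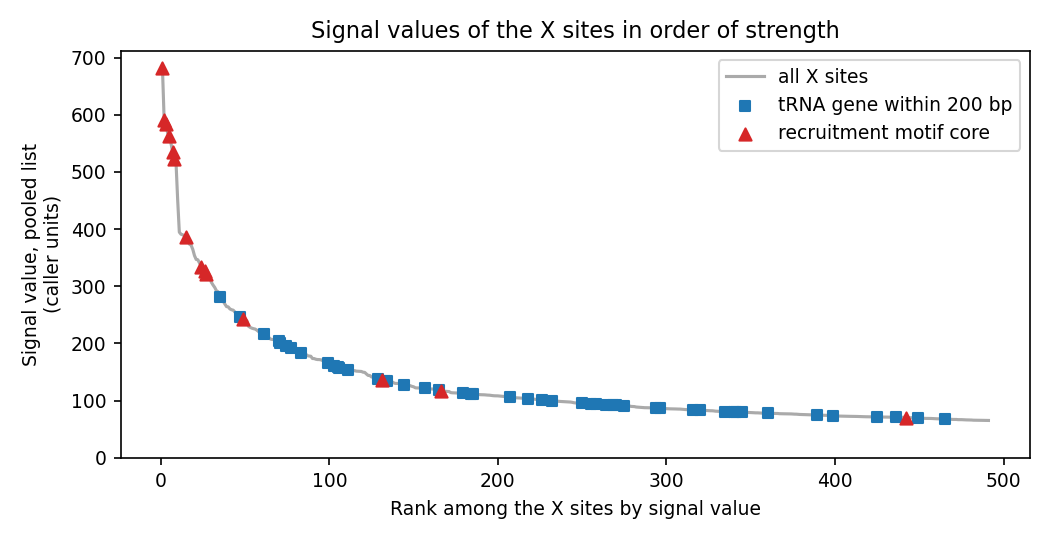
Signal value in the pooled list (vertical axis, caller units) of each of the 491 X sites against its rank among them. Red triangles mark the 14 sites with the recruitment motif core and blue squares the sites within 200 bp of a tRNA gene; the core is found at 6 of the 10 strongest sites, and no site near a tRNA gene is among the 25 strongest.

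Most copies of the core in the genome had no site. X held 81 copies, or 4.57 per Mb, and the autosomes 233, or 2.82 per Mb. On X 20 copies (24.7%) lay within 100 bp of an optimal summit, against 1 of 233 autosomal copies (0.429%). In the pooled list of 30000 regions, which includes background, a summit lay within 100 bp of 29 X copies (35.8%) and 17 autosomal copies (7.30%). The 20 X copies lay at 16 sites, since some sites held more than 1 copy, and whether the sites are among the known recruitment sites of the dosage compensation complex was not tested.

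The strongest X site, with a signal value of 681, lay between genes 1786 bp upstream of F20B6.9 at X:4209063-4209430. It ranked 9 of all 2294 sites. Its signal value was 372 in replicate 3 and 327 in replicate 4, where it had rank 3. The next, with 591, lay in an intron of Y41G9A.17, and the one after it, with 585, lay 720 bp upstream of nspc-17. A site between genes with a signal value of 522 lay 4886 bp upstream of xol-1, the switch gene that X signal elements repress. It had a value of 295 in replicate 3, rank 41, and 223 in replicate 4, rank 21. The site in an intron of mom-1, which encodes the Porcupine homologue needed for Wnt secretion, had a value of 536, with 310 in replicate 3 and 226 in replicate 4. Each of these 5 sites carried the core and ranked within the first 41 of both replicate lists.

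Strong X sites without an exact core included several at promoters of broadly known genes. The site 270 bp upstream of puf-9, a Pumilio-family RNA-binding protein gene, had a signal value of 519, with 351 in replicate 3 and 170 in replicate 4. The site 530 bp upstream of epn-1, the gene of the endocytic adaptor epsin, had 452, with 305 and 142 in replicates 3 and 4. The replicate values of both sites differed by more than those of the xol-1 and F20B6.9 sites. Sites at ftt-2, a 14-3-3 protein gene, and bet-2, a bromodomain protein gene, had values of 380 and 374 and lay 785 bp and 435 bp upstream. A site with 391 lay between genes, 3965 bp past its nearest 5′ end, that of the nuclear hormone receptor gene nhr-3. The others of the 20 strongest were at ZK899.6, W02H3.3, K02D3.1, F09A5.3, serp-1.1, C30E1.4, F22H10.2, T27A8.7, F19H6.5 and F55G7.5, with values from 354 to 569. Among these others, the W02H3.3 and F22H10.2 sites did carry the exact core. Of the 20, 11 lay between genes, 6 in promoter windows and 3 in introns, and 7 carried the core. All 20 were in the top 2294 of both replicates, with values from 208 to 372 in replicate 3 and from 132 to 327 in replicate 4.

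The X sites lay at promoters less often than autosomal sites and between genes more often. A promoter window ran from 1000 bp before to 200 bp after the 5′ end of a transcript of a protein-coding gene. It held 213 of 491 X summits (43.4%, interval 38.9 to 47.9) and 1090 of 1803 autosomal summits (60.5%), an odds ratio of 0.501 (0.407 to 0.616) with an adjusted p of 5.12e-11 by Fisher's exact test over 8 shares. Each of the 5 autosomes was above X, from 57.8 to 63.6%. Intergenic sites made up 185 of 491 on X (37.7%) and 395 on the autosomes (21.9%), an odds ratio of 2.15 (1.73 to 2.68) with an adjusted p of 2.02e-11 by the same exact test, and each autosome was below X, from 18.3 to 27.2%. Sites of the same libraries are not replicates, so these p-values compare sites within 1 list and do not measure variation between animals.

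The make-up of the chromosomes differed in the same direction. Promoter windows covered 21.8% of X and 27.2% of the autosomes, and intergenic sequence 32.3% and 23.5%. X held 154 protein-coding genes per Mb, fewer than each autosome (186 to 236). The part of gene density in the difference was not tested. Introns held 81 X sites (16.5%) and 285 autosomal sites (15.8%), with an odds ratio of 1.05 (0.793 to 1.39) and an adjusted p of 0.832 by the exact test, and exons held 12 (2.44%) and 33 (1.83%), with an adjusted p of 0.484. The median distance of an X summit to the nearest 5′ end was 1108 bp, against 419 bp on the autosomes, where single chromosomes ranged from 358 to 508 bp. Among promoter sites, the median X summit was 270 bp upstream (quartiles 143 and 514) and the median autosomal summit 194 bp (111 and 358). The intergenic sites of X had a median distance of 2734 bp, and 40 of 185 were over 5000 bp from a 5′ end, the farthest at 16759 bp.

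**Figure D2:**
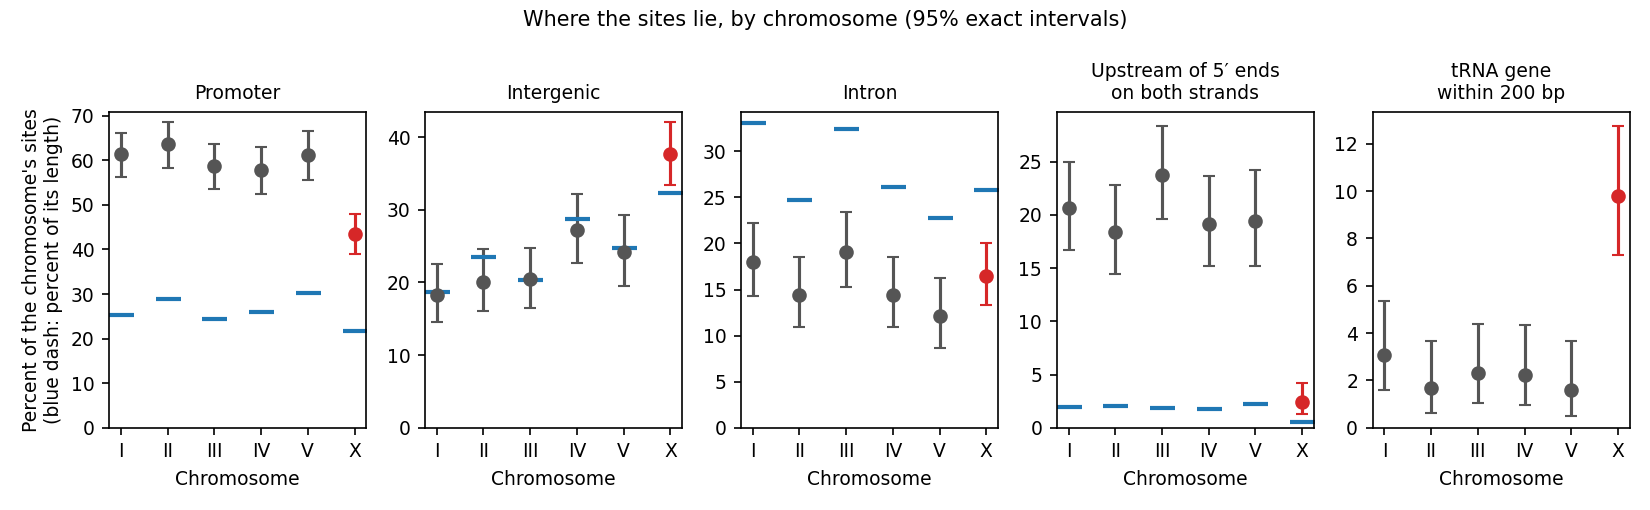
Percent of each chromosome's sites (vertical axes) in promoter windows, between genes, in introns, upstream of 5′ ends on both strands and within 200 bp of a tRNA gene. Points are shares with 95% exact intervals, X in red, and blue dashes give the percent of chromosome length in the same class; X is below each autosome for promoters (43.4%) and for sites upstream of both strands (2.44%), and above each for intergenic sites (37.7%) and tRNA genes (9.78%).

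Sites between diverging 5′ ends were rare on X. The 5′ ends counted include some inside another gene, such as that of hst-6 within rga-8. Only 12 of 491 X summits (2.44%, interval 1.27 to 4.23) lay upstream of 5′ ends on both strands, against 367 of 1803 (20.4%) on the autosomes, where single chromosomes ranged from 18.4 to 23.8%. The odds ratio was 0.0981 (0.0498 to 0.176), with an adjusted p of 8.54e-27 by Fisher's exact test, in a measure added after the values were seen. Among promoter sites alone the shares were 5.63% and 33.7%. Such windows made up 0.560% of the length of X and 1.98% of the autosomes, or 2.56% and 7.28% of all promoter length, so the arrangement itself is rarer on X. The 2 strongest of the 12 were shared by trap-2 and ile-2 (signal value 174), genes of secretory pathway proteins, and by C27C12.4 and C27C12.1 (171). Another, between rab-14 and nipi-3, had a value of 151.

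Sites beside tRNA genes were more frequent on X. A tRNA gene lay within 200 bp of 48 X summits (9.78%, interval 7.30 to 12.8) and 40 autosomal summits (2.22%), an odds ratio of 4.77 (3.03 to 7.55) with an adjusted p of 2.02e-11 by Fisher's exact test. The 5 autosomes ranged from 1.59 to 3.09%. X carried 276 of the 612 nuclear tRNA genes. Of these, 52 (18.8%, interval 14.4 to 24.0) had a site, against 43 of 336 autosomal tRNA genes (12.8%, 9.42 to 16.8), and the autosomes ranged from 6.41 to 18.2%. These intervals overlap, and in the pooled list 48.6% of X and 43.8% of autosomal tRNA genes had a region. A small nucleolar RNA gene lay within 200 bp of 2 of 491 X sites (0.407%) and 55 of 1803 autosomal sites (3.05%), a comparison that was not tested. X carried 33 of these genes, of which 2 (6.06%, interval 0.743 to 20.2) had a site, and the autosomes 313, of which 55 (17.6%, 13.5 to 22.2) did, so the intervals overlap.

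The strongest of the sites beside tRNA genes had a signal value of 281, with 172 in replicate 3 and 109 in replicate 4. Its summit at X:3036135 lay 29 bp before the 5′ end of the tRNA gene WBGene00023110, with M02F4.2 as the nearest protein-coding gene. The window around it, chrX:3036085-3036185 on the plus strand of WBcel235 (RefSeq), is shown to place the summit against the start of the tRNA, whose bases are in capitals.
M02F4.2: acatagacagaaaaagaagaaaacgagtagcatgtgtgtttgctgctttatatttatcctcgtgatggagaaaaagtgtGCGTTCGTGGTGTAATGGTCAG

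The 48 sites near tRNA genes had signal values from 68.0 to 281 with a median of 102, against 95.6 for the other 443 X sites. They were in the top of both replicates in 37 of 48 cases (77.1%), and 28 of the 48 lay between protein-coding genes. Near-identical tRNA genes share reads, so a site at 1 copy may hold reads of another.

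The X sites were less concentrated in the middle of the chromosome than autosomal sites. The central 50% of the length held 245 X sites (49.9%, interval 45.4 to 54.4) and 1106 autosomal sites (61.3%), an odds ratio of 0.628 (0.511 to 0.771) with an adjusted p of 1.30e-05 by Fisher's exact test. Each autosome was above X, from 58.4 to 70.1%. In steps of 10% of the length, X held from 35 to 61 sites each (7.13 to 12.4% of its sites). Single autosomes reached a low of 2.87% and a high of 20.7%. In full 1 Mb bins X held from 19 to 43 sites with a median of 26, the highest between 12 and 13 Mb.

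**Figure D3:**
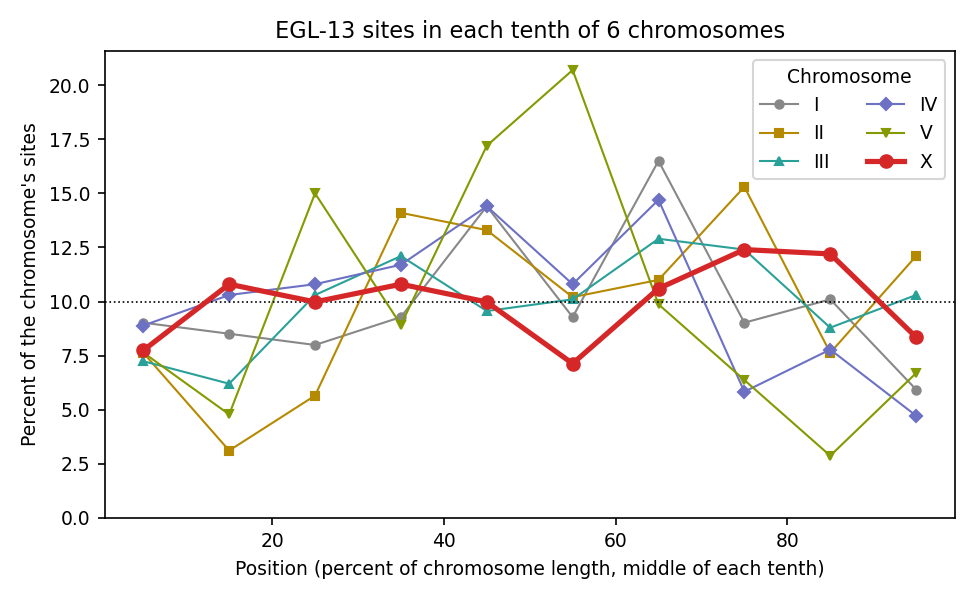
Percent of a chromosome's sites (vertical axis) in each 10% step of its length (horizontal axis, percent of length), with X as the thick red line and the dotted line at an even 10%. The X line stays between 7.13 and 12.4%, while the autosomes reach 2.87% and 20.7%.

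Local clusters and gaps were present all the same. Neighbouring X summits were 18650 bp apart in the median, from 200 to 251581 bp, and 24 of 490 intervals were under 1000 bp. The regions were 384 bp wide in the median, so the closest summits can belong to overlapping regions, each counted here as a site. The densest window of 100 kb held 12 sites at X:12480639-12563794, at atf-6, scd-1, npr-4 and T24D5.1. atf-6 is known as an endoplasmic reticulum stress factor and npr-4 as a neuropeptide receptor. The next held 11 sites, at tbc-12, smvt-1, aat-3, F52H2.5, nhr-40 and T03G6.3, with a strongest value of 255 at tbc-12. The one after that held 10 sites at F38B6.6, acr-2, R03E9.2, mdl-1 and abts-4, where acr-2 encodes an acetylcholine receptor subunit and mdl-1 a Mad-like factor. The longest stretch without a site, X:6436088-6687669, ended where the cluster at acr-2 began. It spanned 46 protein-coding genes, among them pept-1, dop-3, ets-4 and ceh-60, and held 98 regions of the pooled list, the strongest at 60.3 and so below the weakest X site at 65.4.

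Several genes carried sites in series. cab-1 had 7 sites in its promoter window and body, scd-1 had 6 and lin-14, the heterochronic switch factor of the first larval stage, had 5. The lin-14 sites had signal values of 161, 152, 80.1, 77.8 and 68.1, in introns except for the 1 with 80.1, which lay 165 bp upstream of a 5′ end. The cab-1 sites ranged from 66.5 to 153. Of the 274 genes so counted, 243 had 1 site.

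The signal values of X sites overlapped widely with those of autosomal sites. The median signal value on X was 96.0 (quartiles 77.1 and 144) and single autosomes had medians from 97.1 to 110. Signal values above the median of the whole list were found at 224 X sites (45.6%) and 923 autosomal sites (51.2%), with an odds ratio of 0.800 (0.651 to 0.982) and an adjusted p of 0.0519 by Fisher's exact test, which missed the threshold of 0.05. With the signal values of replicate 3 alone the shares were 42.6% and 52.0%, with an adjusted p of 5.02e-04 by the exact test, and with those of replicate 4 alone 50.4% and 49.9%, with an adjusted p of 0.876. X promoter sites had a median of 98.2 and autosomal promoter sites 113, while intergenic sites had medians of 95.3 and 92.6.

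Support by both replicates did not differ detectably between X and autosomal sites. A summit in the top 2294 of both replicates was found for 317 X sites (64.6%, interval 60.2 to 68.8) and 1170 autosomal sites (64.9%), with an odds ratio of 0.986 (0.796 to 1.22) and an adjusted p of 0.915 by Fisher's exact test. On X 101 sites were in the top of replicate 3 only, 58 in that of replicate 4 only and 15 in neither. No summit was within 100 bp in the whole replicate 3 list for 10 X sites and in that of replicate 4 for 21. By signal value in the pooled list, the strongest of these were a site in an intron of sma-9, the site 189 bp upstream of unc-115, and the site at ZC449.4. Their values in replicate 3 were 164, 131 and 72.0. sma-9 encodes a Schnurri homologue of the BMP pathway. A second unc-115 site close by, 15 bp downstream of the 5′ end, had 48.8 in replicate 4 and no replicate 3 summit. Replicate 4 thus had a summit at this promoter, though none within 100 bp of the first unc-115 site. Why it was missing there was not tested. Across X sites with both summits the Spearman rho of the replicates' signal values was 0.600 (461 sites of the same libraries), within the autosomal range of 0.599 to 0.689.

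**Figure D4:**
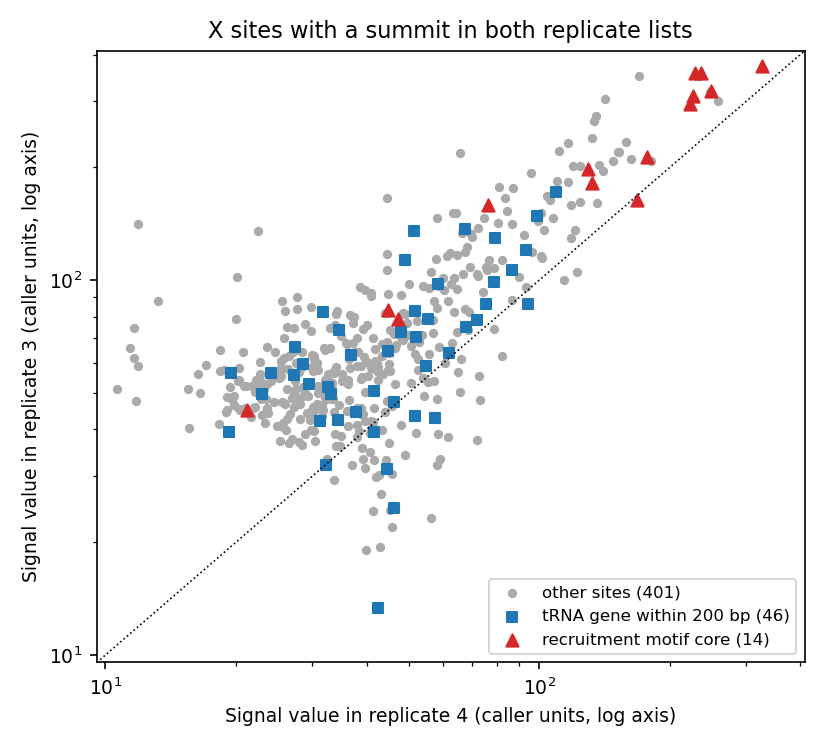
Signal value in replicate 3 (vertical, log axis) against replicate 4 (horizontal, log axis), in caller units, for the 461 X sites with a summit in both lists; the dotted line marks equal values. Most sites lie above the line, the 14 core sites (red triangles) reach 372 in replicate 3 and 327 in replicate 4, and sites near tRNA genes (blue squares) reach 172 and 109.

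The replicates differed in how much of their lists lay on X. The median log2 ratio of replicate 3 to replicate 4 signal values was 0.64 on X (quartiles 0.35 and 1.03), lower than on each autosome (0.74 to 0.85). In the lists of 30000 regions 19% of replicate 3 and 22.7% of replicate 4 lay on X. Within the pooled list the X share was 19.6% among ranks 1 to 500, 18.4% in ranks 501 to 1000, 20.8% in ranks 1001 to 1500 and 24.8% in ranks 1501 to 2294. Regions ranked 2295 to 5000, outside the optimal list, were on X in 24.1% of cases. X made up 17.7% of nuclear length and 13.7% of protein-coding genes.

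**Figure D5:**
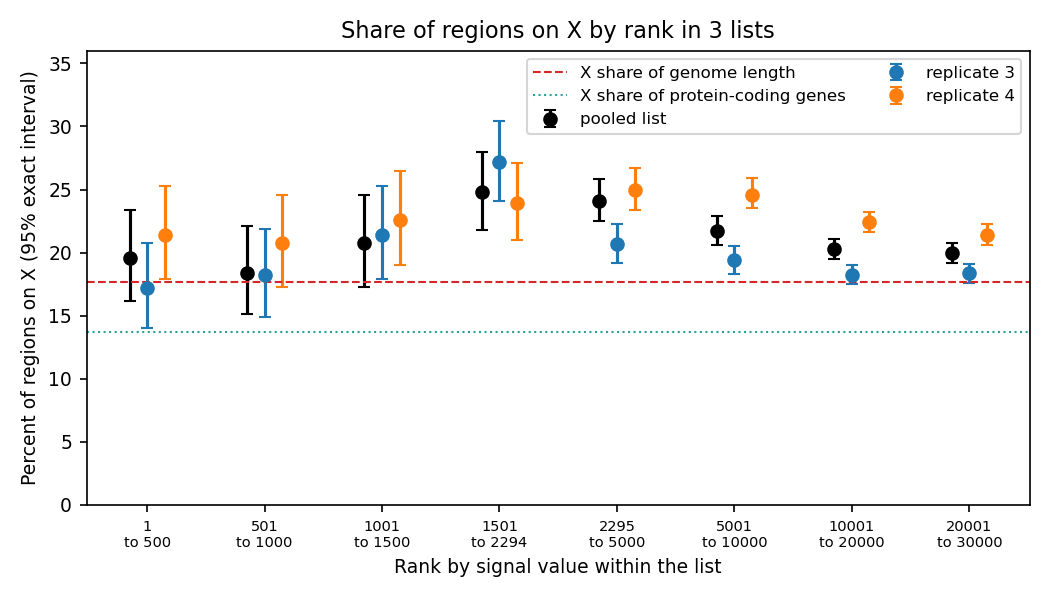
Percent of regions on X (vertical axis, points with 95% exact intervals) by rank in the pooled, replicate 3 and replicate 4 lists, with X's share of length (17.7%) and of protein-coding genes (13.7%) as lines. The pooled share is highest in ranks 1501 to 2294 (24.8%), and replicate 3 lies below replicate 4 in each class of rank beyond 2294.

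The lower edge of the list fell within a narrow range of signal values. The weakest X sites in the list were at tmbi-4 (65.6), F36G3.3, unc-96, lim-6 and M02E1.3 (65.4), and the first X regions left out were at pqn-39 (65.2), rgs-6, smcl-1, dhhc-9 and C24H10.2 (64.9).

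A site in the promoter window was found for 218 of 2727 protein-coding genes on X, or 7.99% (interval 7.0 to 9.08), and for 1463 of 17138 autosomal genes, or 8.54%, with single autosomes from 5.24 to 12.5%. The order turned when each site was given to the nearest 5′ end (14.5% on X and 8.79% on the autosomes) and with the top sites of replicate 4 alone (8.18% and 7.98%). X had 18 sites per 100 genes, above the autosomes' 6.35 to 14.7. By length X had 27.7 sites per Mb, below the 28.1 of chromosome III. Each other autosome was below X, the highest being chromosome I with 25.7. The counts that follow describe gene lists beside these backgrounds and were not tested.

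Of the 6 genes on X in the list of sex determination and X signal elements, 3 had a site in the promoter window. sdc-2, whose product directs the dosage compensation complex to X, had a site 494 bp upstream that ranked 1115, with signal values of 64.5 in replicate 3 and 38.2 in replicate 4. ceh-39 had a site 185 bp upstream with 75.4, 44.0 in replicate 3 and 39.2 in replicate 4. fox-1 had a site 472 bp upstream of one of its 5′ ends with 68.9, and replicate 3 gave only 22 against 45.9 in replicate 4. xol-1 was the nearest gene of the strong site described above, and sdc-1 and sex-1 had no site assigned. Of the 10 autosomal members 0 had a site in the promoter window. In the separate list of dosage compensation complex genes, 1 of 2 on X (sdc-2) and 1 of 8 on the autosomes had such a site. egl-13 itself lies on X and had no site assigned, the nearest being 22463 bp from its 5′ end.

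Among the genes of gas-sensing neurons, the cells for which EGL-13 is best known, 4 of 8 on X had a promoter site and 4 of 13 on the autosomes. gcy-36 and gcy-31, which encode soluble guanylate cyclases of oxygen sensing, had values of 84.5 and 78.7, with 44.9 and 48.1 in replicate 3 and 36.1 and 32.3 in replicate 4. flp-19, a neuropeptide gene, had 77.5, and ets-5, an ETS factor of BAG neurons, had 76.5. These 4 values were below the X median of 96.0. gcy-9, the receptor guanylate cyclase of carbon dioxide sensing, held a site with 73 in its body. For flp-19 the value was 51.1 in replicate 3 and 15.5 in replicate 4, where it ranked 9169.

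Of the heterochronic genes, which time larval development, 2 of 6 on X had a promoter site. ain-1, a GW182-family component of microRNA silencing, had 269, with 159 in replicate 3 and rank 122 in replicate 4, and lin-14 had 80.1. daf-12, a nuclear receptor gene, and kin-20, a casein kinase gene, held sites of 190 and 85.7 in their bodies. Among pan-neuronal and synaptic genes the count was 2 of 7, unc-18, a Munc18 gene, with 112 and syd-2, a liprin gene, with 93.6, against 11 of 23 on the autosomes. Of the axon guidance genes 1 of 4 had a site, unc-115, and of the muscle genes 1 of 9, act-4, an actin gene, with 86.3. The 7 intestine and vitellogenin genes, the 2 hypodermis genes and the 4 vulval signalling genes on X had 0 sites in promoter windows.

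Nuclear hormone receptor genes stood at 8 of 23 on X and 3 of 246 on the autosomes. The 4 strongest were nhr-48 with 178, nhr-1 with 149, nhr-255 with 92.2 and nhr-214 with 91.6. nhr-255 had no replicate 3 summit within 100 bp. The nhr-26 site lay 147 bp upstream of its gene, next to nhr-214 on the chromosome, so these genes are not independent. Among other families on X, 0 of 27 collagen genes, 0 of 24 acr and lgc channel genes, 0 of 10 twk potassium channel genes and 1 of 32 flp and nlp neuropeptide genes had a promoter site, as did 2 of 18 ceh homeobox genes, ceh-54 with 126 and ceh-39. Histone genes had a site at 0 of 4 on X.

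The lists of translation and protein handling genes were drawn up by gene name and had few members on X. Of these, rpl-11.2, eef-1A.2 and hsp-3 had sites well above the X median of 96.0. rpl-11.2, 1 of 2 ribosomal protein genes there, had 298, with 184 in replicate 3 and 110 in replicate 4, against 43 of 76 autosomal ribosomal protein genes with a site. The single gene on X with an eif or eef name, eef-1A.2, which encodes elongation factor 1A, had 280. Its values were 218 in replicate 3 and 65.6 in replicate 4. Translation factor genes with other names, such as ife-2 (88.9) and ife-4 (85.8), had promoter sites but were outside this count. hsp-3, the gene of an endoplasmic reticulum chaperone of the BiP family, had 290 and lay 42 bp from the summit. With dnj-14, which had 80.9, it made up 2 of 5 chaperone genes on X with a promoter site. The count was 1 of 3 for ATPase and respiratory genes with vha, nuo or cox names, vha-12, a vacuolar ATPase subunit gene, with 154. Respiratory genes with other names, such as ucr-2.2 (168), sdha-1 (151) and asg-2 (71.1), had promoter sites but were outside this count. For trafficking genes with rab or vps names the count was 2 of 6, rab-14 with 151 and vps-45 with 81.6. ins-39, an insulin-like peptide gene and 1 of 5 insulin pathway genes on X with a promoter site, had 322, and its site carried the core.

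Of the other motifs searched at the summits, 1 passed the test and did so only with the optimal list and some of its alternatives. GACGCA was found at 53 X sites (10.8%) and 298 autosomal sites (16.5%), with an odds ratio of 0.611 (0.439 to 0.838) and an adjusted p of 0.00721 by Fisher's exact test, and X was below each autosome. The adjusted p rose to 0.110 with the top sites of replicate 3 alone and 0.224 with those of replicate 4 alone. AACAAT, the letters of a Sox-type site, was found at 29 X sites (5.91%) and 112 autosomal sites (6.21%), with an odds ratio of 0.948 (0.599 to 1.46), and in the windows 300 bp away in 13.8% and 13.5%. GAGAGA was found at 26.3% of X sites and 25.1% of autosomal sites, with an odds ratio of 1.06 (0.839 to 1.34). TGACGT was found at 6.31% of X and 6.54% of autosomal sites, CACGTG at 5.09% and 4.05%, CAGCTG at 2.85% and 3.49%, CCGCCC at 4.28% and 5.60%, TGATAA at 3.26% and 4.66% and TGACTCA at 1.83% and 0.998%. For these 6 the adjusted p-values ran from 0.512 to 0.918 by the same exact test.

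Across all hexamers, merged with their reverse complements, a scan added after the values were seen found 46 of 2080 (2.21%) whose share differed between X and autosomal sites at an adjusted p under 0.05 by Fisher's exact test, 15 higher and 31 lower on X, against 307 at an unadjusted p under 0.05. AGGCAG was found at 38 X sites (7.74%) and 51 autosomal sites (2.83%), and CAGGGG at 26 (5.30%) and 32 (1.77%). Lower on X were AAAAAT, at 77 (15.7%) and 473 (26.2%), CGAAAA, at 38 (7.74%) and 291 (16.1%), and GCGCGC, at 19 (3.87%) and 168 (9.32%). Whether the base composition of X accounts for them was not tested.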

How the data were processed

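The authors deposited narrowPeak region lists on ce10 and ce11: 1 per replicate, 1 of both pooled, each of 30000 regions including background, and 1 optimal list after an IDR threshold (reproducibility between ranked lists). Per the deposited file descriptions, a control alignment was used. The sources used here do not give the peak caller, aligner or threshold. The signal value deposited per region ranked regions within a list. The −log10 q value deposited was not used to rank.

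Mitochondrial regions were left out. The summit is the region start plus the deposited offset. Genes came from Ensembl release 115 and sequences from the RefSeq WBcel235 genome. Each site was assigned to the gene whose promoter window holds it, else the gene containing it, else the nearest 5′ end. Shares of X and autosomal sites were compared by two-sided Fisher's exact tests. The p-values were adjusted by Benjamini-Hochberg over the 8 shares, over the 10 motifs, or over 10 shares with the 2 added for diverging 5′ ends. Intervals are exact binomial at 95% and cover counting of sites only.

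The members, lists and motifs were chosen with earlier results of these data known. Named genes were those of the 20 strongest X sites, at most 4 per list, the densest and emptiest windows, and the genes with most sites. Genes of divergent promoters, core sites and tRNA sites, and the weakest members, were named after their values were seen. The counting was checked on simulated sites. Tests ran in SciPy 1.17.1 under Python 3.11.15, tables in pandas 2.3.3 with NumPy 2.4.6, and plots in matplotlib 3.10.9.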

Additional observations from a re-analysis of the deposited data

How the results depend on the processing

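Alternatives used 1 replicate's top 2294 regions, the stronger 50% of sites, sites in the top of both replicates, sites away from tRNA, snoRNA and snRNA genes, single autosomes, other windows or the ce10 lists. None turned a direction past its threshold, and the promoter, intergenic, central, tRNA, divergent and core differences stayed past it in each of theirs, except for the core in windows 300 bp away (0.148 percentage points, which lie outside the sites by construction). The cause was not tested for the changes below.

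The difference in the share above the median signal, -5.57 points, passed the threshold at -10.7 points in the list of replicate 3 alone, -9.38 points both in the top of both replicates and with replicate 3 signal values, -6.40 points away from noncoding genes, -9.53 points against the highest autosome and -5.81 points on ce10. It was 1.84 points in the other direction against the lowest autosome, short of the threshold. The replicate lists in turn gave values from -10.7 to -2.76 points. The X share of sites was 21.4% and 19.5% in the stronger 50%. Of 10 motifs 2 passed, against 1 with each replicate alone, in the stronger 50%, in the top of both and against the lowest autosome, and 0 in windows 300 bp away. GACGCA fell below the threshold at -4.15 points without replicate 4 and against the lowest autosome, -3.58 points without replicate 3, -5.96 points in the stronger 50%, -4.64 points in the top of both and -0.457 points 300 bp away.

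Genes with a promoter site made up 4.11% on X and 5.25% on the autosomes with the stronger 50%, 5.43% and 6.06% with the top of both, 5.98% and 6.86% with a 500 bp window, and 10.7% and 11% with 2000 bp. X was below the autosomes in these and in the main setting (7.99% and 8.54%) and without replicate 4 (7.77% and 8.37%), but above them with assignment to the nearest 5′ end (14.5% and 8.79%) and without replicate 3 (8.18% and 7.98%). No paired analysis was possible because both libraries form 1 group. Depth is unknown, so absence of a site is not absence of binding.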

Other observations

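The X sites near tRNA genes had a median log2 ratio of replicate 3 to replicate 4 of 0.52, those with the core 0.53 and the X sites not near tRNA genes 0.66, against 0.51 for autosomal sites near tRNA genes and 0.81 for autosomal sites not near them.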
